A study of Mus musculus with 12 samples.

Results

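The 10 genes of vasoconstrictor signalling examined here in mouse aortic aneurysm are the receptors Adra1a, Adra1b, Adra1d, Agtr1a, Ednra, Ednrb, Avpr1a and Htr2a, and the G-protein regulators Rgs4 and Rgs5. They were taken by gene symbol, and in GENCODE M21 they lie on chromosomes 14 (Adra1a, Ednrb and Htr2a), 11 (Adra1b), 2 (Adra1d), 13 (Agtr1a), 8 (Ednra), 10 (Avpr1a) and 1 (Rgs4 and Rgs5). In the table all 10 were among the 30130 genes listed. Bulk RNA sequencing covered 7 libraries of chronic proximal thoracic aortic aneurysm (cPTAA, numbered 2, 3, 4, 6, 7, 9 and 12), from animals given elastase around the aorta together with BAPN. It also covered 5 libraries of proximal thoracic aorta (sham, numbered 1, 5, 8, 10 and 11), from animals given sham surgery and normal water. All animals were male, of the strain that the labels spell C56BL/6J. Elastase is a protease that digests elastic fibres, and BAPN inhibits the lysyl oxidases that crosslink elastin and collagen. Elastase and BAPN were given together, so their parts cannot be told apart. Age, dose and time after surgery are not stated in the labels. The design counts 7 aneurysms and 5 aortas without naming animals, so a p-value here reflects only how much these samples vary.

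Arterial smooth muscle contracts when noradrenaline, angiotensin II, endothelin, vasopressin or serotonin binds receptors that couple to Gq proteins. Gq activates phospholipase C, which releases calcium from internal stores, and calcium raises myosin phosphorylation. RGS proteins end the signal by speeding GTP hydrolysis on the G protein. The alpha-1 adrenergic receptors exist as the subtypes A, B and D, and the D subtype is the main one for contraction of the mouse aorta. Endothelin acts through receptor A on smooth muscle and through receptor B, which on endothelium releases nitric oxide and on muscle contracts.

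Depth was 15238188 to 17493428 reads in cPTAA and 14078885 to 16740960 reads in sham. Values are normalised read counts, whole reads divided by a factor per library, and in these units 1 read was worth 0.863 to 1.164. Smooth muscle markers differed widely in mean level. The highest was Acta2 (122701 ± 51075 in cPTAA, 141220 ± 23075 in sham) and the lowest Myocd (227 ± 124 in cPTAA, 430 ± 86.6 in sham). Tagln was also low beside Acta2, at 710 ± 441 in cPTAA and 546 ± 92.1 in sham. Of these 10 markers, 0 rose and 5 fell: Myh11 (34217 ± 18171 in cPTAA, 74348 ± 9771 in sham), Actg2, Synpo2, Lmod1 and Myocd. The count of falls was 3 on leaving out cPTAA 3, 9 or 12 or sham 5, 10 or 11, and the log2 fold changes of Acta2 (-0.32, adjusted p = 0.627) and Cnn1 (-0.85, adjusted p = 0.0808) did not pass. The libraries also held other tissues: all 8 brown adipocyte markers fell (summed level 1740 to 45232 in cPTAA, 33699 to 107201 in sham) and all 7 macrophage markers rose (summed level 15929 to 31565 in cPTAA, 2988 to 7889 in sham). Cardiomyocyte markers moved in 0 of 8, with Myh6, a cardiac myosin heavy chain, at 5784, 10200 and 43557 in cPTAA 6, 7 and 9, at 13.7 to 323 in the other cPTAA libraries and at 186 to 2347 in sham. Mitochondrial genes held 3.23% to 7.35% of reads in cPTAA, with cPTAA 9 at 15.21%, and 10.78% to 16.91% in sham, and their part in the results was not tested. In tissue of this kind, fewer cells of a type and less RNA per cell cannot be told apart.

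Of the 10 genes, 3 were higher and 3 lower in cPTAA at an adjusted p under 0.05 (limma on log2(value + 1), Benjamini-Hochberg over all genes). Among all 21415 tested genes, 12.9% were higher and 11.1% lower, 23.9% in all. Adra1b, Agtr1a and Ednra rose, while Adra1a, Adra1d and Rgs4 fell. Ednrb, Avpr1a, Htr2a and Rgs5 did not pass. The groups did not overlap for Ednra, where all cPTAA values lay above sham (8.02% of tested genes), nor for Adra1a and Adra1d, where all lay below (4.95%). The median log2 fold change of the 10 genes was -0.28, against -0.05 for all tested genes. All 10 passed the filter on low values, the lowest value being 9.49 for Adra1b in sham 1, which was 9 reads.

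**Figure D1:**
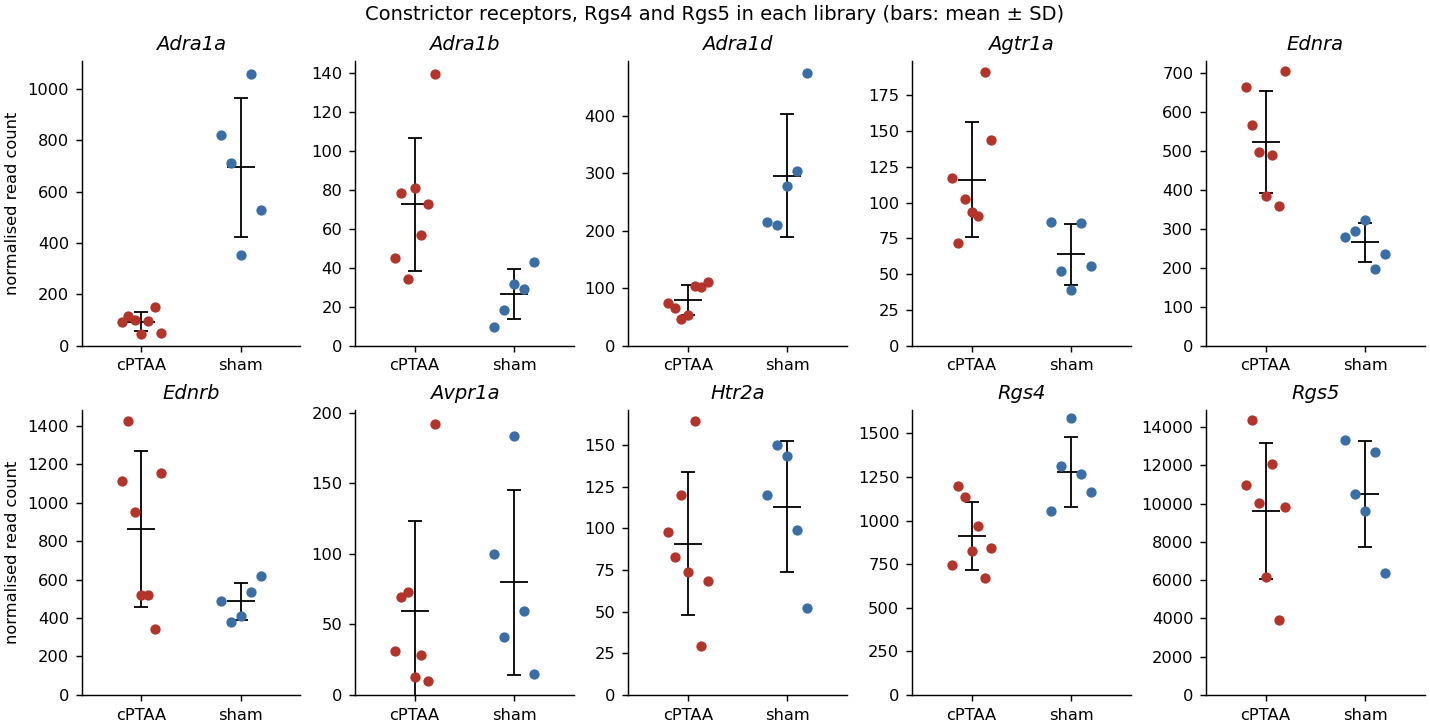
Normalised read counts of the 10 genes in 7 cPTAA libraries (red) and 5 sham libraries (blue), each on its own linear axis from 0, with mean and SD as bars (the lower end for Avpr1a is cut at 0). Adra1a and Adra1d lie lower in every cPTAA library than in any sham library, and Ednra lies higher.

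Per kilobase of exon, the scale on which levels of different genes can be compared, Rgs5 was highest in both groups, at 2114 ± 778 in cPTAA (SD, n = 7) and 2313 ± 609 in sham (SD, n = 5). Rgs4 came next, at 294 ± 63.5 in cPTAA and 412 ± 64.4 in sham. In cPTAA the receptors followed as Ednrb (202 ± 94.8), Ednra (95.6 ± 23.9), Adra1d (42.0 ± 13.6), Agtr1a (41.6 ± 14.4), Avpr1a (22.3 ± 23.8), Adra1b (21.4 ± 10.1), Htr2a (16.2 ± 7.61) and Adra1a (10.7 ± 4.23). In sham the order was Adra1d (156 ± 56.4), Ednrb (114 ± 22.8), Adra1a (79.6 ± 30.9), Ednra (48.5 ± 9.16), Avpr1a (29.9 ± 24.6), Agtr1a (22.9 ± 7.64), Htr2a (20.2 ± 7.04) and Adra1b (7.80 ± 3.80). Among neighbours in these orders, only Rgs5 and Rgs4 in both groups, Ednra and Adra1d in cPTAA, and Rgs4 and Adra1d in sham had ranges that did not overlap. Adra1d was thus the first receptor in sham and the third in cPTAA, behind both endothelin receptors. Lengths were the summed exons of GENCODE M21, so a gene whose tissue uses a short isoform is understated here.

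The alpha-1 adrenergic receptors moved in opposite directions. Adra1a, which in the mouse is found in resistance arteries, heart and brown fat, ranged from 46.3 in cPTAA 6 to 153 in cPTAA 9, with a median of 98.5, against 822, 710.0, 355, 1058 and 531 in sham 1, 5, 8, 10 and 11. The highest cPTAA value was under the lowest sham value. The mean was 93.8 ± 37.0 in cPTAA and 695 ± 269.8 in sham, and Adra1a fell by 2.89 ± 0.32 on the log2 scale (SE, limma adjusted p = 2.11e-05), the largest change of the 10 genes.

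Adra1d, the aortic subtype, ranged from 46.9 in cPTAA 4 to 111 in cPTAA 12, with a median of 75.1, against 216, 209, 277, 304 and 474 in sham 1, 5, 8, 10 and 11. Every cPTAA value was at most 111 and every sham value at least 209. Adra1d fell by 1.88 ± 0.27 on the log2 scale (79.8 ± 25.9 in cPTAA, 296 ± 107 in sham, limma adjusted p = 0.000144). An annotated antisense transcript, Gm14285, overlaps Adra1d, and the strand setting of the counting is not stated in the labels. Gm14285 was listed at 0 to 4.88 in cPTAA and 4.07 to 15.2 in sham, low beside Adra1d. With the strand setting unknown, these low values do not show whether the overlap changed the count of Adra1d.

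Adra1b, a subtype of liver, heart and vessels, ranged from 34.2 in cPTAA 4 to 139 in cPTAA 12, with a median of 72.6, against 9.49, 18.5, 31.6, 29.3 and 43.1 in sham 1, 5, 8, 10 and 11. Only cPTAA 4 lay under the highest sham value, that of sham 11. Adra1b rose by 1.46 ± 0.39 on the log2 scale (72.4 ± 34.3 in cPTAA, 26.4 ± 12.9 in sham, limma adjusted p = 0.0143).

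The balance between subtypes shifted with these changes. The log2 ratio of Adra1d to Adra1b was 0.20 ± 0.57 in cPTAA and 3.53 ± 0.49 in sham (SD, n = 7 and 5), with cPTAA at -0.57 to 0.86 and sham at 3.09 to 4.37. The difference was -3.33 (two-sided exact permutation p = 0.00253, the smallest this design allows, 0.00505 after adjustment over the 4 ratios tested). The log2 ratio of Adra1a to Adra1b was 0.39 ± 1.08 in cPTAA and 4.73 ± 1.20 in sham, a difference of -4.34 with the same exact permutation p. Such a ratio hardly depends on how a library was scaled.

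Per kilobase, the 3 subtypes summed to 74.2 ± 20.7 in cPTAA (46.2 to 105) and 243 ± 59.1 in sham (196 to 323). Adra1b made up 28.5 ± 9.05% of that sum in cPTAA (20.3% to 41.4%) and 3.16 ± 1.30% in sham (1.33% to 4.77%). Adra1a made up 15.3 ± 6.47% in cPTAA and 33.5 ± 12.6% in sham, and its ranges overlapped (5.52% to 24.7% in cPTAA, 18.8% to 44.7% in sham). On this scale Adra1d was the main subtype in every library, at 56.2 ± 6.49% in cPTAA and 63.4 ± 11.5% in sham. These shares rest on the exon lengths used, 8728 bases for Adra1a and 1899 for Adra1d. Before division by length, Adra1a lay above Adra1d in every sham library, and their order varied among cPTAA libraries.

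**Figure D2:**
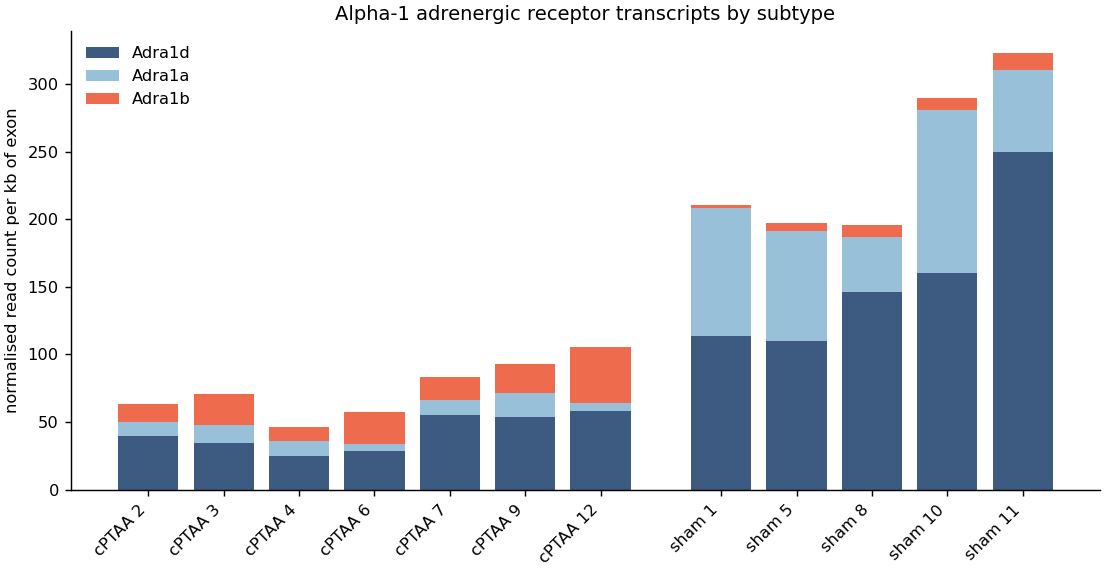
Alpha-1 receptor transcripts per kilobase of exon in each library, stacked by subtype, cPTAA at the left and sham at the right. The summed height is 46.2 to 105 in cPTAA and 196 to 323 in sham, and the Adra1b share is 20.3% to 41.4% in cPTAA and 1.33% to 4.77% in sham. Heights and shares depend on the exon lengths used.

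Markers of brown fat, smooth muscle and mural cells were set beside each alpha-1 receptor. The mean log2 level of 8 brown adipocyte markers was 9.17 ± 1.26 in cPTAA and 11.81 ± 0.67 in sham (SD). Within groups, Adra1a followed it (r = 0.74, Spearman coefficient 0.80 over 12 libraries, deviations from the group means, a description of libraries that share this tissue mixture). Adra1d did not follow it (r = -0.10, Spearman coefficient 0.17) and ran weakly against the smooth muscle score (r = -0.33, Spearman coefficient -0.38). Adra1b ran against the smooth muscle score (r = -0.51, Spearman coefficient -0.41). For brown fat its r was -0.36, but by rank there was hardly a relation (Spearman coefficient -0.12). The marker list that Adra1d followed most closely was that of mural cells and pericytes (r = 0.77, Spearman coefficient 0.77). Of its 9 genes 1 was called higher, Pdgfrb at 4518 ± 889 in cPTAA and 2060 ± 228 in sham. The 2 called lower were Kcnj8 at 518 ± 109 in cPTAA and 889 ± 59.5 in sham and Abcc9 at 2223 ± 834 in cPTAA and 5011 ± 793 in sham. The summed level of that list was 9118 to 13785 in cPTAA and 11336 to 13614 in sham, and its part in the fall of Adra1d was not tested. In cPTAA 9 and sham 8, where the brown adipocyte score was 10.73 and 10.70, Adra1a was 153 and 355. Adjusted for the brown adipocyte score, the log2 fold change of Adra1a was -1.76 ± 0.39 (limma adjusted p = 0.020) and that of Adra1d -1.99 ± 0.45 (adjusted p = 0.0222), while Adra1b no longer passed (0.81 ± 0.63, adjusted p = 0.427). The scores of the groups overlap only in cPTAA 9 and sham 8, so brown fat content and condition can hardly be told apart in such a fit. In it 3.84% of all genes were higher and 2.27% lower. Adjusted for the smooth muscle score, Adra1a (-2.70 ± 0.45, limma adjusted p = 0.00220) and Adra1d (-2.16 ± 0.36, adjusted p = 0.00228) passed and Adra1b did not (0.82 ± 0.50, adjusted p = 0.317), where 6.67% of all genes were higher and 4.5% lower. Of the 10 members, 0 were higher and 2 lower in each of these fits. The smooth muscle score was 10.61 to 12.42 in cPTAA and 12.40 to 12.82 in sham, overlapping only in cPTAA 7 and sham 11. Smooth muscle content and condition can thus hardly be told apart in a fit with that score either.

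Relative to the smooth muscle markers, that is after subtracting their mean log2 level from each library, Adra1a was at -2.06 (limma adjusted p = 0.000358) and Adra1b at 2.28 (adjusted p = 0.00275) on the log2 scale. Adra1d was at -1.06 and missed the threshold (adjusted p = 0.0536). That scaling moved the median of all genes to 0.77, with 33.7% higher and 1.12% lower, and scaling to library totals moved it to 0.09.

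**Figure D3:**
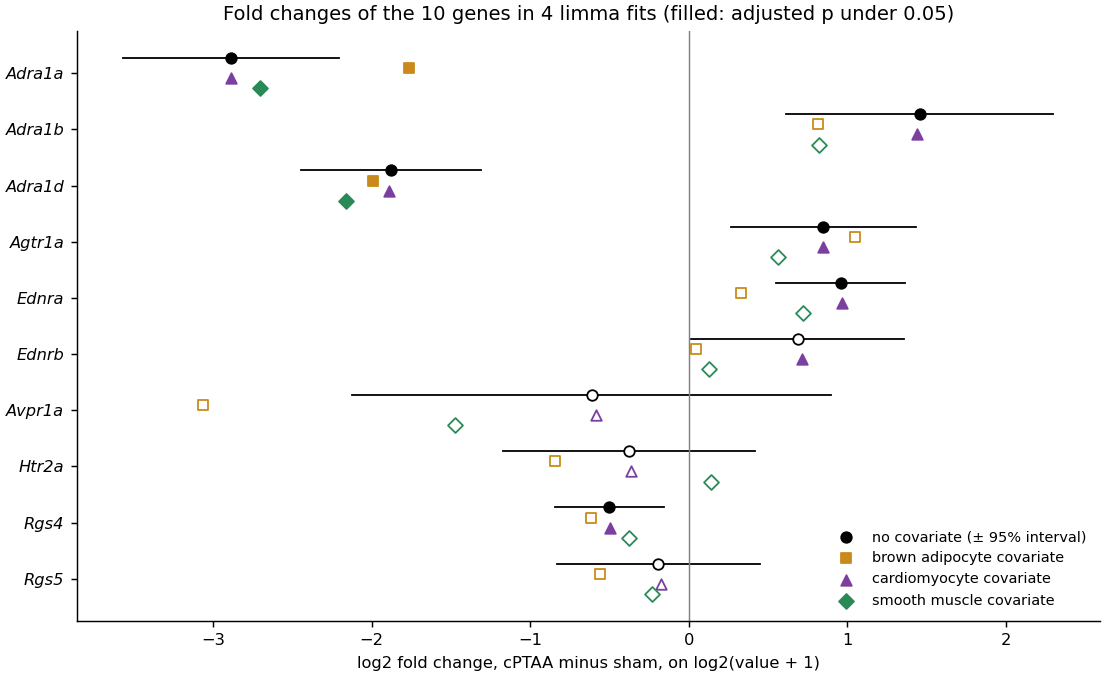
Log2 fold changes (cPTAA minus sham, on log2(value + 1)) of the 10 genes in limma fits with no covariate (black, with 95% intervals) and with the brown adipocyte, cardiomyocyte or smooth muscle score as a covariate; filled symbols have an adjusted p under 0.05. Adra1a and Adra1d pass in all 4 fits, whereas Adra1b, Agtr1a, Ednra and Rgs4 pass only without a covariate or with the cardiomyocyte score, and Ednrb only with the cardiomyocyte score.

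RefSeq promoter sequences (build GRCm38.p6) were at hand for 7 of the 10 genes, and not for Adra1a, Adra1d and Agtr1a, which passed the test. Those of Adra1b, Ednra and Rgs4, the other members that passed, are printed. Each is the 250 bases before the start, 5′ to 3′ on the gene's strand. Capitals mark matches to 4 motifs, searched on both strands. The E-box core CANNTG was found in 66.2% of 32851 promoters of the same length. The GC box GGGCGG was found in 32.7%, the TATA box TATAAA in 12.4% and the AP-1 site TGANTCA in 6.75%. The CArG box, which serum response factor binds in smooth muscle genes, was also searched and was found in 1.47%. Adra1b has 2 starts, at chr11:43901238-43901487 and chr11:43836490-43836739 on the minus strand, with 41.6% and 72.8% GC. The first holds a TGANTCA match and the second a GGGCGG match, and the CArG box letters are in neither window.
Adra1b start 1: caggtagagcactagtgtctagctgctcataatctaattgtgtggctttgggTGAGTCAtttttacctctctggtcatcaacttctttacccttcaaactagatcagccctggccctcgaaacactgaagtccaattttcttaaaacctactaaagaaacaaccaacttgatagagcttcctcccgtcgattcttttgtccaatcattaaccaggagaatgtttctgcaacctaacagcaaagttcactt
Adra1b start 2: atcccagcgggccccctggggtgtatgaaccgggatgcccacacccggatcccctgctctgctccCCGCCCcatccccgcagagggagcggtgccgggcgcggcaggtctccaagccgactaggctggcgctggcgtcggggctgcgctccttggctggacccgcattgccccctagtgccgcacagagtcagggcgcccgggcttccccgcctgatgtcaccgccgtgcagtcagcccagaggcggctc

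Of the type 1 receptors of angiotensin II, Agtr1a rose and Agtr1b did not pass. Agtr1a, the main type 1 receptor of mouse vessels, ranged from 71.9 in cPTAA 3 to 191 in cPTAA 9, with a median of 102, against 86.4, 52.6, 38.7, 85.7 and 55.9 in sham 1, 5, 8, 10 and 11. The groups overlapped, since cPTAA 3 lay under sham 1 and sham 10. Agtr1a rose by 0.85 ± 0.27 on the log2 scale (116 ± 40.2 in cPTAA, 63.9 ± 21.3 in sham, limma adjusted p = 0.0353). Its call was lost on leaving out cPTAA 2 or 12 or sham 5, 8 or 11 (adjusted p 0.0572 to 0.0857) and with sample weights (0.0534). Adjusted for the brown adipocyte or the smooth muscle score, its log2 fold change was 1.05 ± 0.46 (limma adjusted p = 0.161) or 0.56 ± 0.37 (adjusted p = 0.355).

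Agtr1b, the other type 1 gene of rodents, was at 3.54 ± 1.72 in cPTAA and 8.91 ± 5.42 in sham. Its log2 fold change of -0.76 (95% interval -2.08 to 0.55, limma adjusted p = 0.408) did not pass, though it did without sham 11, the sham library listed at 0 (-1.48, adjusted p = 0.0198). Close copies can share reads, so the coding sequences (the longest reading frames of the GENCODE M21 transcripts, GRCm38) were compared. They are 1080 bases each, 90.8% identical, with a longest identical run of 66 bases. Of the 50-base words in Agtr1a transcripts, 1.27% also occur in transcripts of other genes. The first 120 coding bases show how far the pair can be told apart, with the 8 bases that differ in capitals.
Agtr1a: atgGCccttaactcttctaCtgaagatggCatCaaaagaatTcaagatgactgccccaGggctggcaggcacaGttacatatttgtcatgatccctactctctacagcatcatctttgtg
Agtr1b: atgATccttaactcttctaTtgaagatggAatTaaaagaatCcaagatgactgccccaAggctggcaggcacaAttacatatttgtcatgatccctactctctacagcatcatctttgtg

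Endothelin receptor A rose and receptor B did not pass. Ednra, the contractile receptor of smooth muscle, ranged from 359 in cPTAA 9 to 704 in cPTAA 12, with a median of 497, against 279, 295, 323, 196 and 235 in sham 1, 5, 8, 10 and 11. All cPTAA values lay above all sham values. Ednra rose by 0.96 ± 0.19 on the log2 scale (523 ± 131 in cPTAA, 266 ± 50.2 in sham, limma adjusted p = 0.00190), and passed without each library in turn (adjusted p at most 0.00795). After adjustment for brown adipocyte markers it was at 0.33 ± 0.24 (limma adjusted p = 0.399), and for smooth muscle markers at 0.72 ± 0.25 (adjusted p = 0.0845). Within groups Ednra ran against the brown adipocyte score (r = -0.75, Spearman coefficient -0.80), over 12 libraries that share this tissue mixture. It ran with the fibroblast markers (r = 0.79, Spearman coefficient 0.72) and the mesothelial markers (r = 0.70, Spearman coefficient 0.76). Of 7 fibroblast markers 2 rose, Lum (9356 ± 2512 in cPTAA, 2164 ± 581 in sham) and Dcn. Of 5 mesothelial markers 0 were called higher and 2 lower, with a median log2 fold change of -1.54. The part of either list in the rise of Ednra was not tested. An antisense transcript that overlaps Ednra, 4933431K23Rik, was at 6.14 ± 5.09 in cPTAA and 5.49 ± 3.67 in sham. The 250 bases before the Ednra start (chr8:77724453-77724702, minus strand, GRCm38.p6) hold a CANNTG match and no other of the letters searched.
Ednra: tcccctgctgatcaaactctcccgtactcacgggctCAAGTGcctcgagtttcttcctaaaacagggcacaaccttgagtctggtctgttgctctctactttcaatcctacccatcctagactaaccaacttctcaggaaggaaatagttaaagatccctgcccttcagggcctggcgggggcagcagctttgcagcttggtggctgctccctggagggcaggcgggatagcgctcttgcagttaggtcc

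Ednrb ranged from 342 in cPTAA 9 to 1426 in cPTAA 3, with a median of 954, against 486, 379, 411, 537 and 620.3 in sham 1, 5, 8, 10 and 11. The cPTAA libraries split, with 2, 3, 4 and 12 at 954 or more, above all sham, and 6, 7 and 9 at 342 to 520.5, within or under the sham range. The log2 fold change was 0.69 ± 0.31 (862 ± 405 in cPTAA, 487 ± 97.3 in sham, 95% interval 0.02 to 1.36, limma adjusted p = 0.130), and edgeR gave 0.80 (adjusted p = 0.0691). It passed in DESeq2 (0.82, adjusted p = 0.0393), in limma without cPTAA 9 (0.88, adjusted p = 0.020) and with sample weights (0.96, adjusted p = 0.00822). Of 26 alternatives, Ednrb passed in 7 and missed in 19. Of 12 fits that each left out 1 library, only that without cPTAA 9 passed. The lowest Ednrb value is that of cPTAA 9, so leaving it out raises the fold change by that choice and is no test.

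Of the cPTAA libraries, those with the lowest Ednrb had the highest cardiomyocyte markers. The summed level of 8 such markers was 1592 to 135134 in cPTAA and 1986 to 7836 in sham. Their mean log2 level was 9.34, 9.95 and 11.12 in cPTAA 6, 7 and 9, 5.22 to 7.35 in the other cPTAA libraries and 6.62 to 9.08 in sham, and within groups Ednrb ran against it (r = -0.80, Spearman coefficient -0.78, n = 12 libraries). In a fit adjusted for it, added after the data were seen, the log2 fold change of Ednrb was 0.71 ± 0.21 (limma adjusted p = 0.0192). In that fit 14.5% of all genes were higher and 13% lower. Ednrb ran against that score within groups, so an SE smaller than the 0.31 without it goes with the choice and is no test. Within groups Ednrb also ran against skeletal muscle markers (r = -0.70, Spearman coefficient -0.71) and smooth muscle markers (r = -0.51, Spearman coefficient -0.73), and with endothelial markers (r = 0.65, Spearman coefficient 0.61). Of 8 endothelial markers 0 were called higher and 3 lower, with a summed level of 8317 to 13432 in cPTAA and 11305 to 16575 in sham, and their part in the Ednrb values was not tested. Adjusted for brown adipocyte markers the fold change of Ednrb was 0.04 ± 0.49 (limma adjusted p = 0.965), and for smooth muscle markers 0.13 ± 0.39 (adjusted p = 0.860). The log2 ratio of Ednrb to Ednra was 0.60 ± 0.49 in cPTAA and 0.87 ± 0.54 in sham (SD, n = 7 and 5), a difference of -0.27 that did not pass (two-sided exact permutation p = 0.364, also after adjustment).

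**Figure D4:**
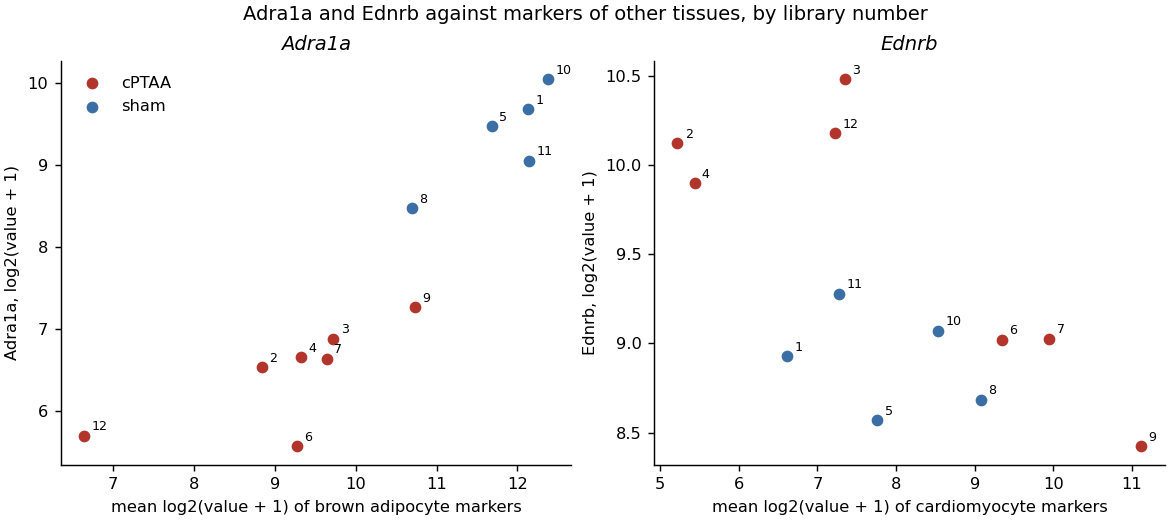
Left, Adra1a against the mean log2(value + 1) of 8 brown adipocyte markers; right, Ednrb against that of 8 cardiomyocyte markers; points are libraries labelled by number, cPTAA in red and sham in blue. Adra1a is lower in cPTAA 9 than in sham 8 at nearly the same brown adipocyte score (10.73 and 10.70), and the 3 cPTAA libraries with the highest cardiomyocyte scores have the lowest Ednrb of their group.

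The vasopressin and serotonin receptors varied more among libraries than between groups. Avpr1a, the vascular vasopressin receptor, ranged from 9.80 in cPTAA 9 to 192 in cPTAA 12, with a median of 31.1, against 100.2, 40.9, 183, 59.7 and 15.1 in sham 1, 5, 8, 10 and 11. Each group thus spanned a wide range, and the ranges nearly coincided. The log2 fold change was -0.61 ± 0.71 (59.4 ± 63.6 in cPTAA, 79.8 ± 65.7 in sham, 95% interval -2.12 to 0.90, limma adjusted p = 0.578). Its sign turned without cPTAA 9 and sham 8 together (0.10), without cPTAA 6, 7 and 9 and sham 8 (0.74) and relative to the smooth muscle markers (0.21). Brown adipocyte adjustment gave -3.06 ± 0.89, which missed the threshold (limma adjusted p = 0.0556).

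Htr2a, the serotonin receptor through which platelet serotonin contracts arteries, ranged from 29.4 in cPTAA 9 to 164 in cPTAA 7, with a median of 82.7, against 120.2, 150.0, 144, 98.7 and 52.4 in sham 1, 5, 8, 10 and 11. The ranges overlapped. The log2 fold change was -0.38 ± 0.37 (90.9 ± 42.6 in cPTAA, 113 ± 39.5 in sham, 95% interval -1.17 to 0.42, limma adjusted p = 0.510), and was positive relative to the smooth muscle markers (0.45) and adjusted for their score (0.14).

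Rgs4 and Rgs5, both on chromosome 1 and regulators of Gq and Gi signals in mural cells, differed in call. Rgs4 ranged from 671 in cPTAA 9 to 1198 in cPTAA 3, with a median of 843, against 1054, 1312, 1587, 1266 and 1166 in sham 1, 5, 8, 10 and 11. Of the cPTAA libraries, 3 and 4 reached into the sham range and the other 5 lay under it. Rgs4 fell by 0.50 ± 0.16 on the log2 scale (912 ± 197 in cPTAA, 1277 ± 199.6 in sham, limma adjusted p = 0.0341), but relative to the smooth muscle markers it was at 0.32 (adjusted p = 0.407). The Rgs4 call was lost on leaving out cPTAA 2 or 6 or sham 5, 8, 10 or 11 (adjusted p 0.0520 to 0.0888), when scaled to library totals (-0.37, adjusted p = 0.142) and with sample weights (adjusted p = 0.0614). Brown adipocyte or smooth muscle adjustment gave -0.62 ± 0.27 (limma adjusted p = 0.154) or -0.38 ± 0.22 (adjusted p = 0.296). The 250 bases before the Rgs4 start (chr1:169747643-169747892, minus strand, GRCm38.p6) hold 4 CANNTG matches and a TATAAA match at bases -31 to -26.
Rgs4: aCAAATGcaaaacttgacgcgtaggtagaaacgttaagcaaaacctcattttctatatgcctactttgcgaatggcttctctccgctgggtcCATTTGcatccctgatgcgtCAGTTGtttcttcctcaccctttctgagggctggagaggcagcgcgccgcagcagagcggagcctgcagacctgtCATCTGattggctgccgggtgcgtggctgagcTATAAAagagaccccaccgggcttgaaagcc

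Rgs5, a marker of pericytes and arterial smooth muscle, ranged from 3916 in cPTAA 9 to 14361 in cPTAA 3, with a median of 10011, against 13345, 10488, 9631, 12719 and 6392 in sham 1, 5, 8, 10 and 11. The ranges overlapped, with cPTAA 6 and 9 and sham 11 the lowest. The log2 fold change was -0.19 ± 0.30 (9611 ± 3538 in cPTAA, 10515 ± 2768 in sham, 95% interval -0.83 to 0.45, limma adjusted p = 0.692), and turned positive without cPTAA 9 (0.01), with sample weights (0.04) and relative to the smooth muscle markers (0.63). The log2 ratio of Rgs4 to Rgs5 was -3.32 ± 0.47 in cPTAA and -3.01 ± 0.50 in sham (SD, n = 7 and 5), a difference of -0.31 that did not pass (two-sided exact permutation p = 0.288, 0.364 after adjustment over the 4 ratios).

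Other genes of this signalling were counted in lists. Counts over all 12 libraries without a covariate are read against the 12.9% higher and 11.1% lower among all tested genes. With the brown adipocyte score those shares were 3.84% and 2.27%, and with the smooth muscle score 6.67% and 4.5%. Of 24 tested ligands and their enzymes, 4 were higher and 4 lower, with a median log2 fold change of -0.16. Edn1, the precursor of endothelin, rose by 1.45 ± 0.20 (307 ± 76.5 in cPTAA, 110.2 ± 19.8 in sham, limma adjusted p = 9.52e-05) with no overlap between groups, at 206 to 423 in cPTAA and 85.0 to 129 in sham. Ace, which makes angiotensin II and degrades kinins, rose by 1.29 ± 0.24 (9201 ± 2593 in cPTAA, 3602 ± 492 in sham, adjusted p = 0.00127), with only cPTAA 9, at 3749, inside the sham range. Tbxas1, thromboxane synthase, and Tph1, which starts serotonin synthesis, also rose. Mme (neprilysin, which degrades endothelin and other peptides) fell by 1.63 ± 0.24 (539.9 ± 167 in cPTAA, 1645 ± 433 in sham, limma adjusted p = 0.000171). Slc22a3, an amine transporter, Ren1 (renin) and Maob, a monoamine oxidase, also fell, though Maob was at 0.01 relative to the smooth muscle markers. The calls of Tph1 (lost on leaving out cPTAA 2, 3, 6 or 12 or sham 5 or 11) and Ren1 (lost on leaving out cPTAA 2, 4, 7, 9 or 12 or sham 1, 5, 10 or 11) rest on few reads. Adjusted for brown adipocyte markers, 0 of these genes rose and 1 fell, Edn1 standing at 1.09 (adjusted p = 0.0503).

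Of 26 other constrictor receptors tested, 6 were higher and 5 lower, with a median log2 fold change of 0.02. Those with the smallest p among the rises were P2ry6, a receptor for uridine nucleotides (1195 ± 239.7 in cPTAA, 308 ± 67.9 in sham, log2 fold change 1.96 ± 0.18, limma adjusted p = 5.38e-06), the leukotriene receptor Cysltr1 (2.05 ± 0.30) and the sphingosine phosphate receptor S1pr2 (1.08 ± 0.16). P2ry6 and Cysltr1 are also known from macrophages, whose markers rose in 7 of 7, and the part of macrophages in these rises was not tested. The falls were Npy1r, the neuropeptide Y receptor (743 ± 343 in cPTAA, 1684 ± 226 in sham, log2 fold change -1.28 ± 0.25), the prostanoid receptors Ptger3 and Ptgfr, Adra2c, and the serotonin receptor Htr1b, which was at 0.19 relative to the smooth muscle markers. The falls numbered 3 on leaving out cPTAA 2 or sham 5, 8 or 10, where 1675 to 2213 of all genes fell, against 2374 with all libraries. Adra2c lost its call without cPTAA 2 or 3 or sham 8, 10 or 11, Ptgfr without sham 5, and Htr1b without each library other than cPTAA 4 and 6. Brown adipocyte adjustment gave 1 rise and 1 fall in this list, where 3.84% of all genes were higher and 2.27% lower. Smooth muscle adjustment gave 5 rises and 0 falls, where 6.67% of all genes were higher and 4.5% lower. None of the falls named above passed after brown adipocyte adjustment (limma adjusted p 0.235 to 0.703).

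Of 22 receptors that relax vessels, 3 were higher and 3 lower, with a median log2 fold change of 0.07. The prostacyclin receptor Ptgir (247 ± 53.4 in cPTAA, 103 ± 24.9 in sham, log2 fold change 1.26 ± 0.20, limma adjusted p = 0.000351), the prostaglandin E receptor Ptger4 (1.04 ± 0.20) and Vipr2, a receptor for vasoactive intestinal peptide (0.77 ± 0.27), rose. Adrb3, the beta-3 adrenergic receptor of adipocytes (777 ± 204 in cPTAA, 2091 ± 354 in sham, log2 fold change -1.45 ± 0.19), the natriuretic peptide receptor Npr1 (-0.96 ± 0.15) and Adrb1 (-1.57 ± 0.49) fell. There were 5 falls without cPTAA 9, where 2818 of all genes fell, against 2374 with all libraries. The call of Vipr2 was lost on leaving out cPTAA 2, 3, 4, 6 or 7 or sham 8, 10 or 11, and that of Adrb1 on leaving out cPTAA 2, 3, 4, 6 or 7 or sham 5 or 11. Brown adipocyte adjustment left 1 rise and 0 falls, where 3.84% of all genes were higher and 2.27% lower.

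Downstream of the receptors, 3 of 27 coupling genes were higher and 9 lower, with a median log2 fold change of -0.20. The rises were Plcb2 and Prkcb, both of blood cells, and Prkcd. The part of blood cells in these rises was not tested. Plcb2 was at 159 ± 45.5 in cPTAA and 18.2 ± 8.37 in sham (log2 fold change 3.13 ± 0.33, limma adjusted p = 1.46e-05). The falls with the smallest p were Ppp1r12a, the targeting subunit of myosin phosphatase (2793 ± 782 in cPTAA, 7599 ± 319 in sham, log2 fold change -1.49 ± 0.18, limma adjusted p = 5.01e-05), the calcium release channel Itpr2 (-1.06 ± 0.20) and the phospholipase Plcb4 (-1.27 ± 0.26). The Gq family genes Gnaq and Gna11 did not pass, with Gnaq at -0.02 (95% interval -0.55 to 0.52) and Gna11 at -0.18 (-0.51 to 0.14). Adjusted for smooth muscle markers 3 rose and 3 fell, where 6.67% of all genes were higher and 4.5% lower. Adjusted for brown adipocyte markers 3 rose and 2 fell, where 3.84% of all genes were higher and 2.27% lower.

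Of 14 other RGS genes tested, 6 were higher and 3 lower, with a median log2 fold change of 0.10. The rises with the smallest p were Rgs19 (log2 fold change 1.25 ± 0.14), Rgs10 (512 ± 163 in cPTAA, 114 ± 39.8 in sham, log2 fold change 2.17 ± 0.26, limma adjusted p = 3.92e-05) and Rgs16 (2.99 ± 0.41). The other rises were Rgs1, Rgs14 and Rgs18. Several of these genes are known from leukocytes, and all 7 macrophage markers and all 7 T and B cell markers rose (summed level of T and B cell markers 192 to 2304 in cPTAA, 22.1 to 167 in sham), whose part in these rises was not tested. Rgs2, which is selective for Gq and limits vasoconstriction, fell by 1.28 ± 0.20 (1343 ± 332 in cPTAA, 3319 ± 1035 in sham, limma adjusted p = 0.000359), and Rgs7 and Rgs17 had log2 fold changes of -1.83 ± 0.23 and -1.87 ± 0.44. Rgs2 stood at -0.85 after brown adipocyte adjustment (adjusted p = 0.105), where 2 of the list rose and 1 fell. In that fit 3.84% of all genes were higher and 2.27% lower. Among 8 receptor kinases, arrestins and partners, Arrb2 and Grk6 were higher and Grk3 lower. Arrb2, an arrestin, was at 812 ± 159.6 in cPTAA and 209.9 ± 45.7 in sham (log2 fold change 1.94 ± 0.18, limma adjusted p = 5.64e-06). Grk3, a kinase that desensitises receptors, was at 426 ± 144 in cPTAA and 1360.5 ± 235 in sham (log2 fold change -1.73 ± 0.23, limma adjusted p = 9.82e-05). Without cPTAA 9, 4 of that list rose, where 3156 of all genes rose, against 2754 with all libraries.

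**Figure D5:**
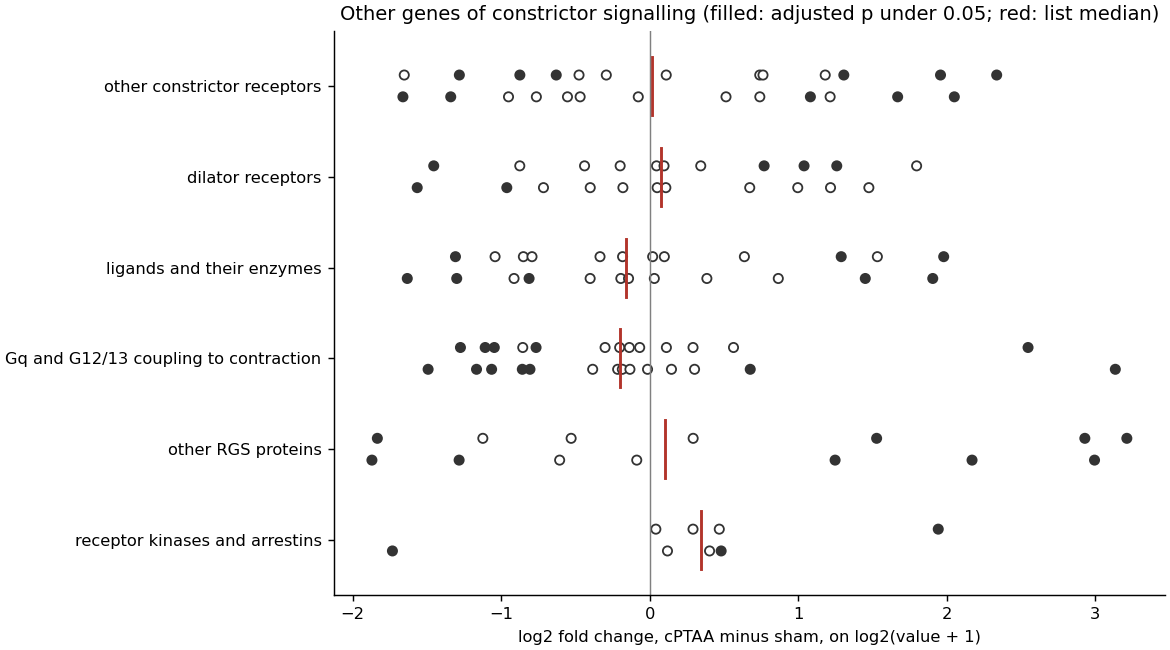
Log2 fold changes (cPTAA minus sham) of the tested genes in 6 lists of constrictor signalling, 1 point a gene; filled points have a limma adjusted p under 0.05 and red lines are list medians. All 6 lists have filled points on both sides of 0, with 9 below and 3 above among the coupling genes.

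The genes whose values followed each member most closely within groups were named by Pearson's r of deviations from the group means of log2(value + 1), over 12 libraries and 15932 genes with a mean of at least 10. The libraries share depth, scaling and tissue mixture, so these are descriptions. Adra1a was followed by Pex11a (r = 0.94), Coa5 (0.94) and Hk2 (0.94), all of which fell in cPTAA; Pex11a serves peroxisome division, Coa5 cytochrome oxidase assembly and Hk2 glucose phosphorylation. Ednra was followed by Camk1d (0.94), Cpne8 (0.94) and Zfp521 (0.94), all of which rose. Adra1d was followed by Adam11 (0.89), which fell, and by Cad (0.88) and Plekhm2 (0.88), which did not pass. Agtr1a was followed by Dram2 (0.91) and Abhd18 (0.88), which fell, and Ndc1 (0.87), and Avpr1a by Hps3 (0.94) and Kif15 (0.93), which rose, and Frk (0.93). Adra1b was followed by Med25, Fance and Ring1 (0.97, 0.97 and 0.96), Ednrb by Slf2, Mia2 and the G protein gene Gna13 (0.92, 0.92 and 0.91), and Htr2a by Zfp110, Xpc and Copg1 (0.95, 0.95 and 0.94), none of which passed. Rgs5 was followed by Hmgxb4, Cwf19l2 and Smc1a (0.96, 0.96 and 0.95), and Rgs4 by Acsl3, Hspa4l and Wsb1 (0.91, 0.91 and 0.88), of which only Hspa4l passed, as lower. Among the members themselves, Agtr1a and Rgs4 ran most strongly against each other (r = -0.78, Spearman coefficient -0.70), and by Pearson's r Htr2a and Rgs5 ran most strongly together (r = 0.76, Spearman coefficient 0.52), while by the Spearman coefficient Ednra and Avpr1a did (r = 0.71, Spearman coefficient 0.64).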

How the data were processed

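Total RNA of whole aortic tissue was captured on oligo-dT beads and sequenced, per the labels' protocols. The submitters' processing notes name GRCm39, HISAT2 2.0.5, featureCounts 1.5.0-p3 and StringTie; strand setting, scaling and filters are not given in the sources used here. What the authors deposited is a normalised signal for each gene; 100% of values were whole reads (within 0.02 reads) divided by 1 factor per library, and recovered totals were 14078885 to 17493428 reads. Since the signal was already normalised by the authors, the test was limma 3.58.1 (R 4.3.3, mean-variance trend) on log2(value + 1), a scale that understates changes of low genes, for the 21415 genes that reached a value of 1 in 5 or more libraries; p-values were adjusted by the Benjamini-Hochberg method and called under 0.05. Marker scores are means of log2(value + 1) and entered other limma fits as covariates. The quasi-likelihood test of edgeR 4.0.16, DESeq2 1.42.0, other scalings, filters, pseudocounts, sample weights, covariates and leaving out each library were alternatives. Ratios of 2 genes used a two-sided exact permutation test over libraries. The calculations were tested on simulated data.

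The members and lists were chosen with earlier results of these data known. Besides the members, the text names genes from each list of constrictor signalling. These are the 3 with the smallest p in each direction, or all where 5 or fewer passed. From the lists of cell type markers only some of the called genes are named. The 3 genes most like each member are also named. Agtr1b, Gnaq, Gna11, Actg2, Synpo2, Lmod1, Pdgfrb, Kcnj8, Abcc9, Lum, Dcn, Rgs1, Rgs14 and Rgs18 were named after their values were seen. Promoter and transcript sequences are of GRCm38, another build than the authors', so no other coordinates are printed.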

Additional observations from a re-analysis of the deposited data

Results flagged for a closer look

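In sham 1, the log2 ratio of Adra1d to Adra1b was 4.37, with the other sham libraries at 3.09 to 3.43; its gap to the nearest was 0.736 of the range of the group, above the critical value of 0.71 for 5 samples. Adra1b was at 9.49 in that library, its lowest value. It was the only value of the 10 genes and 4 ratios to be this far apart, over 28 groups, of which chance marks about 1 in 20.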

How the results depend on the processing

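No paired analysis was possible because the numbers in the sample titles are not shared between the groups. The rises of Adra1b and Ednra and the falls of Adra1a and Adra1d passed without each library in turn, and Adra1a passed in all 26 alternatives. Over leaving out each library, members called higher numbered 2 to 4 and lower 2 to 3. Over the same refits, 2213 to 3156 of all genes were higher and 1675 to 2818 lower, of 20791 to 21200 tested. The most in either direction were called without cPTAA 9. With the brown adipocyte or smooth muscle score as a covariate, 0 members were higher and 2 lower, though either score can hardly be told apart from condition. With the brown adipocyte score the log2 fold changes that no longer passed were Adra1b 0.81, Agtr1a 1.05, Ednra 0.33 and Rgs4 -0.62; with the smooth muscle score they were Adra1b 0.82, Agtr1a 0.56, Ednra 0.72 and Rgs4 -0.38, and Htr2a turned to 0.14. The SE of Adra1b was 0.63 and 0.50 in these fits, against 0.39. With the smooth muscle mean subtracted, 1 member was lower; Adra1d was at -1.06 (not passing), Ednrb passed at 1.51, and Avpr1a (0.21), Htr2a (0.45), Rgs4 (0.32), Rgs5 (0.63), Htr1b (0.19), Maob (0.0115), Agtr1b (0.0605) and Acta2 (0.50) turned positive. Acta2 and Cnn1 also turned positive with the brown adipocyte (0.51 and 0.17) and smooth muscle (0.59 and 0.24) covariates. With sample weights Agtr1a (0.62) and Rgs4 (-0.36) no longer passed, Ednrb did (0.96) and Rgs5 was at 0.0433. Scaled to library totals, Rgs4 (-0.37) did not pass; DESeq2 called Ednrb (0.82). Without cPTAA 9 and sham 8 together, Agtr1a (0.56) and Rgs4 (-0.35) did not pass, Ednrb (0.83) did and Avpr1a was at 0.10. Without cPTAA 6, 7 and 9 and sham 8, Agtr1a (0.62) and Rgs4 (-0.31) did not pass. There Ednrb was at 1.21, Avpr1a at 0.74 and Rgs5 at 0.11. The cPTAA libraries left out in these settings are the lowest of their group in Ednrb. Leaving them out raises its fold change by that choice and is no test. With the cardiomyocyte score Ednrb passed (0.71); these 3 settings were chosen after seeing the data. Over leaving out each library, Agtr1a was at 0.69 to 0.97, Rgs4 at -0.57 to -0.42, Ednrb at 0.54 to 0.88 and Rgs5 at -0.36 to 0.00656, the highest without cPTAA 9. The cause of these changes was not tested. Over all genes, 2754 were higher and 2374 lower. These were 822 and 486 with the brown adipocyte score and 1429 and 963 with the smooth muscle score. With the smooth muscle mean subtracted they were 7222 and 239. Scaled to library totals they were 3179 and 1709, of 14793 genes tested there. The 4 ratios stayed on their side of the threshold in all 52 refits, with a pseudocount of 0.1 or without each library in turn. The ratios were not refitted with any marker score as a covariate. Among the 10 members, Adra1b in sham has the fewest reads, 9 to 37.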
